A study of Mus musculus with 90 samples.

Results

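Osteoclast cultures that expressed the human transcription factor IRF8 with the amino acid change G388S were compared with mock cultures at day 4 of differentiation. The 6 libraries, 3 titled hIRF8G388S and 3 titled mock, were taken by their titles from the 90 libraries of the series and were read across all expressed genes. The cells were bone marrow-derived macrophages (BMMs) of mice, cultured with M-CSF, the growth factor that keeps macrophages alive, and RANKL, the cytokine that turns them into bone-resorbing osteoclasts. Per the labels' protocols, the cells used for transduction came from Irf8-/- mice, which lack the endogenous gene, and received human IRF8 as wild type (hIRF8WT), as hIRF8G388S or as hIRF8379-389, a form named by its residues. The labels give the genotype of the mock cells as mock and do not say what they received, and they do not name the vector, the promoter or the strain. Per the design text, mice of both sexes were used in the study, and age is not given. The Y-linked genes Ddx3y, Eif2s3y, Kdm5d and Uty were at 0 in all 6 libraries.

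IRF8 belongs to the interferon regulatory factors, proteins that bind interferon response elements in promoters, often together with a partner such as PU.1 or BATF3. It directs the development of monocytes and of some dendritic cells, and it switches on antigen presentation genes and phagocyte genes. In osteoclast precursors IRF8 restrains differentiation by interfering with NFATc1, the master transcription factor of osteoclasts, and its level falls when RANKL acts.

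The deposited values are RPKM, in which the reads of a gene are divided by its length and by the alignments of the library, so a level can be compared between genes. Changes are differences of the mean log2 (RPKM + 1), G388S minus mock, each with its standard error, and a gene was called where its adjusted p was below 0.05 by limma with Benjamini-Hochberg adjustment over the 10749 tested genes. The file header gives 26, 68.5 and 41.2 M alignments for mock and 29.6, 16.2 and 15.7 M for G388S. The libraries agreed closely within groups, with a standard deviation of their deviations from the group mean between 0.0839 and 0.126 on the log2 scale. Library deviations followed gene length to some extent, with correlations across genes, which are not independent replicates, from -0.428 to 0.477 in mock and from -0.251 to 0.309 in G388S. The labels do not say whether the replicates came from separate animals or cultures, so p-values measure the spread between these libraries, which may be technical.

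Markers of osteoclasts were present in both groups and their sum was lower in G388S. Before RANKL, at day 0, the 9 osteoclast markers summed to 105 to 129 RPKM in G388S and 74 to 78.6 RPKM in mock, so G388S was the higher there. At day 4 they summed to 5521 to 5768 RPKM in G388S and 7914 to 8359 RPKM in mock. The 10 macrophage markers summed to 7233 to 7348 RPKM in G388S and 11063 to 12320 RPKM in mock, and most of the sum was Lyz2, lysozyme, with a mean of 5760 RPKM in G388S and 10216 RPKM in mock. The other 9 summed to 1492 to 1568 RPKM in G388S and 1653 to 1700.1 RPKM in mock. In these bulk samples fewer cells of a type and less RNA per cell cannot be told apart. Markers of B cells, T and NK cells, mast cells and erythroid cells all stayed under 1 RPKM, and the 10 neutrophil markers summed to 8.54 to 11.8 RPKM in G388S and 12.8 to 18.7 RPKM in mock. The 6 dendritic cell markers summed to 8.02 to 8.88 RPKM in G388S and 0.714 to 0.819 RPKM in mock.

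Irf8 itself (chr8:120736358-120756694, GRCm38, plus strand) was read at 6.9, 6.74 and 6.33 RPKM in the mock libraries and at 24.7, 21.7 and 21.4 RPKM in the G388S libraries. The groups did not overlap, and the change was 1.62 ± 0.082 (adjusted p = 1.11e-09). Reads of the human construct that map to the mouse gene and any transcript left by the disrupted allele cannot be told apart in these values.

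At day 4, 4870 of 10749 tested genes (45.3%) were called, 2493 higher (23.2%) and 2377 lower (22.1%) in G388S. The median change over all tested genes was -0.0029, and most changes were small. Counts of list members are read against these shares. For 52.8% of tested genes the 3 libraries of each group did not overlap. Only 279 genes (2.6%) were called higher and 161 (1.5%) lower by a log2 change of at least 1, so the largest changes leaned towards rises. When the spread was estimated from all 33 construct libraries of days 0, 4 and 8 in place of the 12 of day 4, 2973 genes were called, 1543 higher and 1430 lower. With a gene length trend subtracted from each library the count was 5282.

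**Figure D1:**
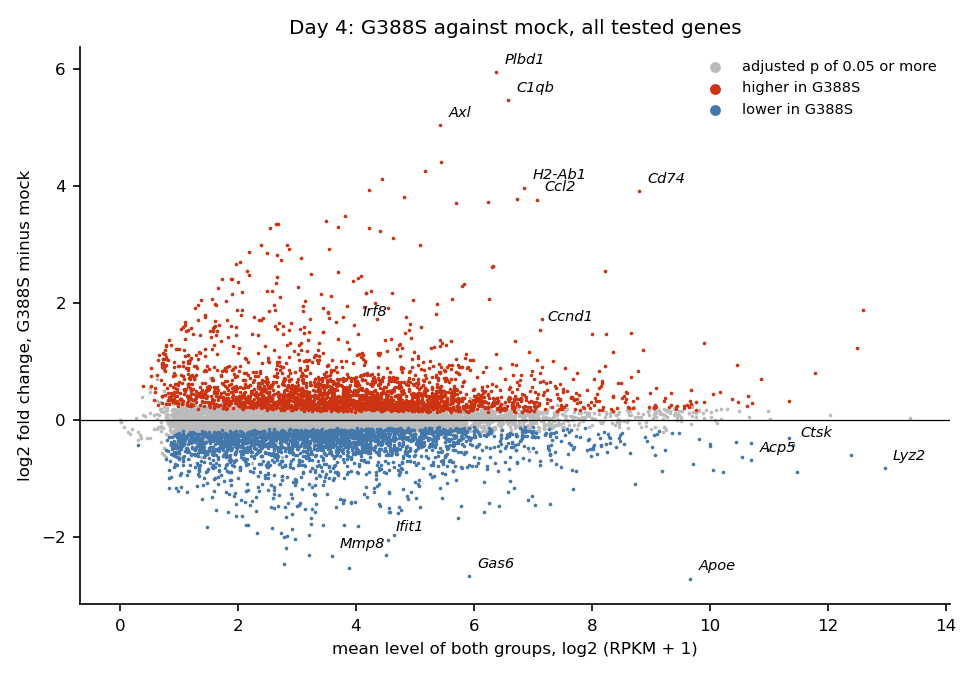
Change of each of the 10749 tested genes at day 4 (y axis, log2 fold change, G388S minus mock) against its mean level (x axis, log2 of RPKM + 1), with genes called higher in red, called lower in blue and not called in grey. Rises reach further from 0 than falls, and Plbd1 and C1qb stand highest while Apoe and Gas6 stand lowest.

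Genes of MHC class II presentation, by which cells show peptides of engulfed proteins to helper T cells, rose together. Of 12 listed genes 10 were tested, and all 10 were called higher, against 23.2% over all tested genes. Their median change was 2.84, against -0.0029 over all tested genes. H2-Oa and H2-Ob, which tune peptide loading, were below the level filter of 1 RPKM in 3 libraries. Among the 10, 2 were under 1 RPKM in every mock library and entered the test through the groups in which they were high.

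The gene H2-Ab1 (chr17:34257689-34269419, plus strand), the beta chain of the class II molecule I-A, was at 14.9, 12.4 and 11.4 RPKM in mock and 223, 212 and 211 RPKM in G388S, a change of 3.97 ± 0.10 (adjusted p = 8.13e-13). Its partner chain H2-Aa (chr17:34282744-34287823, minus strand) stood at 15.6, 12.1 and 13 RPKM in mock and at 196, 193 and 199 RPKM in G388S, a change of 3.77 ± 0.11 (adjusted p = 3.03e-12). All 3 G388S libraries lay far above all 3 mock libraries for both chains, and their choice among the largest rises required no overlap. Cd74, the invariant chain that escorts class II molecules, stood highest among the members that changed by more than 1, with 64.5, 52.1 and 48.6 RPKM in mock and 837, 809.7 and 850.1 RPKM in G388S (change 3.90 ± 0.10, adjusted p = 1.18e-12). H2-Eb1, the beta chain of I-E, was at 6.83, 6.37 and 5.94 RPKM in mock and 97.6, 95.7 and 92.2 RPKM in G388S (change 3.70 ± 0.10, adjusted p = 1.47e-12). H2-DMa, part of the peptide exchange factor, went from 2.47 ± 0.154 to 32.7 ± 0.665 RPKM (SD, n = 3 each), a change of 3.28 ± 0.10. Ciita, the master activator of class II genes, was at 0.154, 0.157 and 0.25 RPKM in mock and 5.87, 5.1 and 4.89 RPKM in G388S, a change of 2.40 ± 0.086 (adjusted p = 2.31e-11). The smallest changes of the list were those of Ctss, a protease that cuts Cd74, at 0.44 ± 0.079, and Ifi30, a reductase of endosomes, at 0.70 ± 0.063. Ctss was also the most abundant, at 897 ± 79.1 RPKM in mock and 1219 ± 73 RPKM in G388S (SD, n = 3 each). Dendritic cell markers moved with this group, from a sum of 0.714 to 0.819 RPKM to a sum of 8.02 to 8.88 RPKM, and their part in the class II result was not tested.

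Promoters of class II genes carry a set of conserved boxes, among them the Y box bound by the factor NF-Y. The letters CTGATTGG of the Y box, searched on both strands, occur in the 300-base promoters (250 bases before and 50 after the start) of 4.7% of 27025 genes in the RefSeq table (GRCm38.p6) and of 6.9% of the 8429 tested genes with an entry. They occur in 2 of 7 tested class II genes with an entry, 8.33% of 204 matched genes that rose by at least 1, and 0.847% of 118 matched genes that fell by at least 1. The 2 class II promoters are shown because their genes rose together, with the Y box in capitals. H2-Aa spans chr17:34287774-34288073 on the minus strand and H2-Eb1 chr17:34305617-34305916 on the plus strand, both written 5′ to 3′ along the gene.
H2-Aa: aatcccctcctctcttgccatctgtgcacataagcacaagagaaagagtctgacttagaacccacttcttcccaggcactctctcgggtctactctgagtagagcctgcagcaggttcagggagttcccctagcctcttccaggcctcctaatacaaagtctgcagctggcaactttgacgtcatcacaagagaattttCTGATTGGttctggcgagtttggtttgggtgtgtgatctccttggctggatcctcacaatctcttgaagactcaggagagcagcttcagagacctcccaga
H2-Eb1: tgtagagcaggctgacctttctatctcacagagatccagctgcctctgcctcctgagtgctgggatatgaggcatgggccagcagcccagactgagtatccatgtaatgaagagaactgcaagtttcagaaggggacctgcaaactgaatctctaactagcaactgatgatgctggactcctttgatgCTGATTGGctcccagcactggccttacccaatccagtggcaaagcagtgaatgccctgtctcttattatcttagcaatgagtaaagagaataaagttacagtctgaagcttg
The Y box lies 51 to 44 bases before the start in H2-Aa and 62 to 55 bases before it in H2-Eb1.

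MHC class I presentation, by which cells show peptides of their own proteins, was higher in most members. Of 16 tested genes 10 were called higher, against 23.2% over all tested genes, and 3 lower, a share near the 22.1% over all tested genes, with a median change of 0.48. The subunits of the immunoproteasome, which cuts proteins into peptides, rose, with Psmb10 at 48.5, 35.6 and 39.6 RPKM in mock and 79.4, 84.7 and 87.3 RPKM in G388S (change 1.02 ± 0.10, adjusted p = 1e-06) and Psmb8 at a change of 0.70 ± 0.10. The non-classical class I genes H2-Q6 and H2-Q7 changed by 1.66 ± 0.15 and 1.67 ± 0.17, and as near-identical copies that can share reads their separate values are uncertain. The classical heavy chains H2-K1 and H2-D1 and their common light chain B2m fell, by -0.52, -0.42 and -0.31 on the log2 scale. B2m was at 2936, 2776 and 2891 RPKM in mock and 2112, 2336 and 2493 RPKM in G388S, a fall small beside the rise of class II.

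The gene with the largest rise of all was Plbd1, a phospholipase B-like protein of lysosomes and granules. It was at 1.82, 1.74 and 1.44 RPKM in mock and 171, 156 and 160.2 RPKM in G388S, a change of 5.94 ± 0.069 (adjusted p = 2.63e-16). It was low in all mock libraries and high in all G388S libraries, and the choice of the largest rises required no overlap. The 3 chains of C1q, the first component of the complement cascade and a product of macrophages, all rose. C1qb was at 4.42, 2.69 and 2.72 RPKM in mock and 171, 187 and 197 RPKM in G388S (change 5.46 ± 0.13, adjusted p = 3.63e-13). C1qa was at 1.87, 1.08 and 1.23 RPKM in mock and 37.9, 38.2 and 44 RPKM in G388S (change 4.11 ± 0.13, adjusted p = 4.5e-12), and C1qc changed by 3.73 ± 0.088 to 139.9 ± 7.57 RPKM (SD, n = 3). The 3 chains thus moved together, each with no overlap between groups, which the choice of C1qa and C1qb among the largest rises required.

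Axl, a receptor tyrosine kinase with which phagocytes take up dying cells, was at 1.77, 0.97 and 2.04 RPKM in mock and 80.1, 82.3 and 84.9 RPKM in G388S (change 5.03 ± 0.12, adjusted p = 3.37e-13). Its ligand and a sister receptor went the other way. Gas6, the ligand of Axl, was at 107, 100.5 and 104 RPKM in mock and 16.1, 15.3 and 14.9 RPKM in G388S (change -2.67 ± 0.078, adjusted p = 2.95e-12). Mertk, the sister receptor, was at 12.2, 13.7 and 15.3 RPKM in mock and 2.76, 2.96 and 2.52 RPKM in G388S (change -1.97 ± 0.093, adjusted p = 5.33e-10). Thus Axl was higher in G388S where Mertk and Gas6 were lower.

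Monocyte chemoattractants and their receptor Ccr2 rose. Ccl2, which draws monocytes, was at 20.3, 16.3 and 15.5 RPKM in mock and 220.3, 250.0 and 273 RPKM in G388S (change 3.76 ± 0.10, adjusted p = 1.03e-12). The related Ccl7 was at 3.13, 2.72 and 2.29 RPKM in mock and 42.9, 59.1 and 51.8 RPKM in G388S (change 3.81 ± 0.13, adjusted p = 1.51e-11). Ccl12 was at 1.72, 0.904 and 1.24 RPKM in mock and 27.4, 34.4 and 39.9 RPKM in G388S (change 3.93 ± 0.14, adjusted p = 2.43e-11). These 3 genes are close relatives, and reads they share could be placed on either. Ccr2, the receptor for Ccl2, was at 1.07, 1.13 and 0.998 RPKM in mock and 10.1, 8.72 and 9.53 RPKM in G388S (change 2.34 ± 0.079, adjusted p = 1.19e-11). Of 2 other chemokines 1 fell and 1 rose, with Ccl3 changing by -1.57 ± 0.11 and Ccl5 by 0.71 ± 0.13. Of 17 tested chemokine and growth factor receptors 7 were called higher, against 23.2% over all tested genes. Another 4 were called lower, a share near the 22.1% over all tested genes. Cxcr4, the receptor that holds cells in the marrow, fell by -1.41 on the log2 scale. Also among the 12 largest rises was Dmpk, a muscle and heart protein kinase, at 3.18, 2.82 and 2.73 RPKM in mock and 83.8, 79 and 82.2 RPKM in G388S (change 4.40 ± 0.071, adjusted p = 1.23e-14).

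Apoe, the lipid carrier protein of macrophages, fell furthest. It was at 1461, 1331 and 1442 RPKM in mock and 210.2, 230.1 and 201 RPKM in G388S, a change of -2.72 ± 0.08 (adjusted p = 3.03e-12). Mmp8, the neutrophil collagenase, was at 17.6, 20.4 and 19.3 RPKM in mock and 2.81, 3.04 and 3.14 RPKM in G388S (change -2.33 ± 0.10, adjusted p = 1.03e-10). Maoa, which oxidises amine transmitters, was at 34.7, 37.9 and 38.7 RPKM in mock and 6.39, 7.1 and 6.49 RPKM in G388S (change -2.31 ± 0.076, adjusted p = 8.84e-12). All 3 were lower in every G388S library than in every mock library, as the choice of the largest falls required. Gsta3, a glutathione transferase, fell from a mean of 24.2 ± 1.5 to 3.35 ± 0.37 RPKM (SD, n = 3 each, change -2.54 ± 0.082). The surface receptors Trem3 and Cd33 and the membrane protein Ms4a4a fell with changes of -2.47 ± 0.14, -2.32 ± 0.079 and -2.20 ± 0.15. Sort1, a sorting receptor between Golgi and endosome, Fcrls, a receptor-like protein of microglia and macrophages, and Penk, the precursor of enkephalin peptides, changed by -2.04 ± 0.11, -2.00 ± 0.11 and -1.99 ± 0.11.

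**Figure D2:**
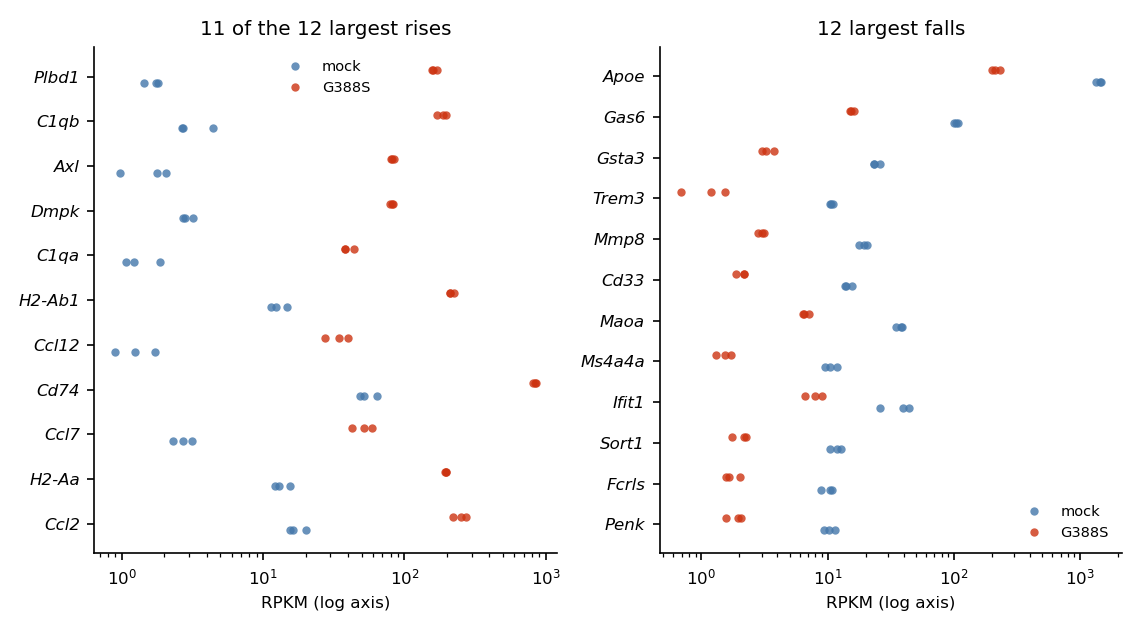
Level in each library (x axis, RPKM on a log axis) of 11 of the 12 genes with the largest rises (left) and the 12 with the largest falls (right) at day 4, with mock in blue and G388S in red and 3 points per group. No gene shown has libraries of both groups at the same level, as the choice of genes required, and Cd74 and Apoe reach the highest levels.

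The macrophage identity list as a whole did not move one way. Of 23 tested genes 9 were called higher and 13 lower, with a median change of -0.48. Counts in this paragraph stand beside 23.2% higher and 22.1% lower over all tested genes. Besides the C1q chains, Fcgr1, the high-affinity receptor for IgG, rose from 1.08, 0.846 and 0.912 RPKM in mock to 17.2, 19.3 and 22 RPKM in G388S (change 3.39 ± 0.10, adjusted p = 3.53e-12). Adgre1, which encodes the macrophage marker F4/80, fell from 165, 177 and 177 RPKM to 66.6, 67.4 and 65 RPKM (change -1.37 ± 0.067, adjusted p = 8.61e-10). Lyz2, lysozyme, changed by -0.82 ± 0.094 and the scavenger receptor Marco by -1.33 ± 0.11. Among 11 genes of the phagocyte oxidase and Fc receptors Fcgr1 was the single rise, and 8 fell, among them the inhibitory receptor Fcgr2b by -1.29 and the oxidase subunit Ncf1 by -0.47 on the log2 scale.

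Genes by which osteoclasts fuse and dissolve bone were lower in G388S. All 20 listed genes were tested, and 17 were called lower and 0 higher, with a median change of -0.38 against -0.0029 over all tested genes, of which 22.1% were called lower. Acp5, tartrate-resistant acid phosphatase, the classic stain of osteoclasts, was at 2033, 2091 and 2044 RPKM in mock and 1267, 1239 and 1314 RPKM in G388S (change -0.69 ± 0.068, adjusted p = 1.24e-06). Ctsk, cathepsin K, the protease that degrades bone collagen, was at 3007, 3162 and 3148 RPKM in mock and 2290.3, 2267 and 2350.0 RPKM in G388S (change -0.43 ± 0.064, adjusted p = 6.75e-05). The groups did not overlap for either, and both stayed among the abundant transcripts of the G388S libraries. Mmp14, a membrane collagenase, was at 131, 131 and 131 RPKM in mock and 79.1, 79.5 and 77.7 RPKM in G388S (change -0.73 ± 0.046, adjusted p = 1.29e-08). Itgb3, the integrin chain that seals the cell to bone, was at 44.6, 49.5 and 62.1 RPKM in mock and 27, 25.6 and 25.6 RPKM in G388S (change -0.96 ± 0.092, adjusted p = 9.5e-07). Atp6v0d2, a proton pump subunit needed for fusion, changed by -0.51 ± 0.058 and Dcstamp, a fusion receptor, by -0.29 ± 0.061. These falls were modest beside the rise of class II genes. The 3 members that were not called were Ocstamp, another fusion receptor, at 66.1, 67.6 and 65.1 RPKM in mock and 63.9, 59.3 and 65 RPKM in G388S (change -0.078 ± 0.062, adjusted p = 0.329), the collagen receptor Oscar (change -0.12 ± 0.077, adjusted p = 0.225) and the surface protein Cd109.

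Transcription factors and RANK signalling genes of osteoclasts were more often called lower than higher. Of 27 tested genes 15 were called lower, against 22.1% over all tested genes, with a median change of -0.35. Another 6 were called higher, a share near the 23.2% over all tested genes. Nfatc1 was at 49.9, 53.1 and 58.4 RPKM in mock and 40.3, 35.5 and 37.1 RPKM in G388S (change -0.50 ± 0.067, adjusted p = 2.62e-05). Tnfrsf11a, the gene of the RANK receptor, changed by -0.38 ± 0.078, and Trem2, a receptor that gives the costimulatory signal, was at 257, 218 and 205 RPKM in mock and 123, 134 and 131 RPKM in G388S (change -0.80 ± 0.083, adjusted p = 2.04e-06). The AP-1 factors split. Fos, the AP-1 subunit that acts upstream of Nfatc1, was higher, at 105, 99.9 and 99.5 RPKM in mock and 151, 147 and 151 RPKM in G388S (change 0.56 ± 0.052, adjusted p = 7.53e-07). Fosl1, under 1 RPKM in every mock library, changed by 1.09 ± 0.14, and Fosl2 by -0.54 ± 0.072. Spi1, which encodes PU.1, was not called (change -0.027 ± 0.076, adjusted p = 0.796).

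Known repressors of osteoclast formation were more often called higher than lower. Of 11 tested genes 6 were called higher and 1 lower, with a median change of 0.44, and Hes1 and Eomes were below the filter. Over all tested genes 23.2% were called higher and 22.1% lower. Irf8 is among the 6, and as the gene that the construct carries its call says nothing about the other members. Id3, an inhibitor of DNA-binding helix-loop-helix factors, was at 22.8, 16.8 and 14.9 RPKM in mock and 92.6, 89.1 and 93.4 RPKM in G388S (change 2.29 ± 0.12, adjusted p = 2.3e-09). Its relative Id1 was at 3.76, 3.06 and 3.57 RPKM in mock and 16.5, 17.4 and 21.1 RPKM in G388S (change 2.11 ± 0.10, adjusted p = 4.86e-10). Rbpj, the DNA-binding partner of Notch, was at 21.5, 23.3 and 23.5 RPKM in mock and 47.2, 46.8 and 43.7 RPKM in G388S (change 0.98 ± 0.054, adjusted p = 2.7e-09). All 3 had no overlap between groups, which held for 52.8% of all tested genes. The single fall was that of Zeb2, a zinc finger factor, at -0.32 ± 0.079.

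The lysosome and its proton pump, which osteoclasts use to acidify the bone surface, were lower in most members. Of 28 tested genes 20 were called lower and 2 higher, with a median change of -0.27, against 22.1% lower and 23.2% higher over all tested genes. Ctsd, cathepsin D, was at 3872, 3452 and 3798 RPKM in mock and 1929, 2087 and 1987 RPKM in G388S (change -0.89 ± 0.079, adjusted p = 4.49e-07). Atp6v1a, the catalytic subunit of the pump, was at 281, 307 and 327 RPKM in mock and 207, 196 and 193 RPKM in G388S (change -0.61 ± 0.061, adjusted p = 1.31e-06). The 2 rises were Ctsh, cathepsin H (1.06 ± 0.073), and Npc2, a cholesterol carrier (0.46 ± 0.056).

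Interferon-stimulated genes, which cells switch on after type I interferon, did not share a direction. Of 40 tested genes 12 were called higher and 11 lower, with a median change of -0.032. Both counts were not far above the shares over all tested genes, 23.2% higher and 22.1% lower. Ifit1, an RNA-binding antiviral protein, was at 39.4, 25.9 and 44.3 RPKM in mock and 6.64, 8 and 9.09 RPKM in G388S (change -2.05 ± 0.16, adjusted p = 1.43e-07). The related Ifit3 was at 35.4, 22.6 and 47.7 RPKM in mock and 8.78, 10.8 and 12.5 RPKM in G388S (change -1.58 ± 0.21, adjusted p = 2.59e-05). Its near copy Ifit3b changed by -1.85 ± 0.19, and reads shared by the 2 copies cannot be placed with certainty. Mock varied more than G388S here, with mock replicate 2 the lowest of the 3 for each of these genes. The RNA sensor Ddx58 (RIG-I) changed by -1.13 ± 0.12 and the receptor transporter Rtp4 by -1.42 ± 0.15. In the other direction Mx1, an antiviral GTPase, was at 0.579, 0.348 and 0.809 RPKM in mock and 8.93, 9.98 and 11.3 RPKM in G388S (change 2.82 ± 0.13, adjusted p = 6.22e-10), and it passed the level filter through the groups in which it was high. Oasl1 changed by 1.63 ± 0.19, Ifi205 by 1.58 ± 0.24 and Phf11d by 1.60 ± 0.12. Without mock replicate 2 the list held 17 lower members in place of 11. With libraries weighted by their spread it held 19 higher members in place of 12.

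The promoters of Ifit1 and Ifit3 are shown because both genes fell and both hold the letters GAAANNGAAA of the interferon response element, the class of site that IRF proteins bind. Searched on both strands, these letters occur in 3.99% of the 27025 genes with a promoter, 4.07% of the 8429 tested genes with one, 8.33% of the 204 matched genes that rose by at least 1 and 12.7% of the 118 matched genes that fell by at least 1. Of 29 tested interferon-stimulated genes with an entry 16 hold it. In both sequences below, written 5′ to 3′ along the plus strand (GRCm38.p6), the matches are on the opposite strand and so appear in capitals as their complement. Ifit1 spans chr19:34640639-34640938 and Ifit3 chr19:34583279-34583578.
Ifit1: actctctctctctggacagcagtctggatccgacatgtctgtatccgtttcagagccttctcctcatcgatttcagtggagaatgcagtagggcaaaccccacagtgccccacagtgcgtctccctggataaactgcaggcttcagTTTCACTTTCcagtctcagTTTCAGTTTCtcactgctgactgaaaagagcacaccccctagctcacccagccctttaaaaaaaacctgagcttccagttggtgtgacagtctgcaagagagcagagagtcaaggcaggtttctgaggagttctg
Ifit3: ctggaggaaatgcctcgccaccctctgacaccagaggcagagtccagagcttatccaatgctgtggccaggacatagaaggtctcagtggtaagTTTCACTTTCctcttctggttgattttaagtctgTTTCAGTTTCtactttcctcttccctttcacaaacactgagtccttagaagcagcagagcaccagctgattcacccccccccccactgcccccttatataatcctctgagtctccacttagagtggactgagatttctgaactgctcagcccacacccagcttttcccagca
The matches of Ifit1 lie 104 to 95 and 85 to 76 bases before the start, and those of Ifit3 lie 156 to 147 and 122 to 113 bases before it. A match is a description of the letters and does not show binding.

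GTPases and chemokines induced by interferon-gamma were split as well, with 4 higher and 7 lower of 14 tested genes and a median change of -0.39. The shares over all tested genes were 23.2% higher and 22.1% lower. With libraries weighted by their spread 4 members were higher and 4 lower, with a median of -0.15. Without the level filter the counts were 6 and 6, with a median of 0.0031. Irgm2, an immunity-related GTPase, was at 17.8, 14.9 and 20.8 RPKM in mock and 5.34, 6.1 and 5.42 RPKM in G388S (change -1.50 ± 0.10, adjusted p = 2.45e-08). Its relatives Igtp and Gbp7 changed by -0.93 ± 0.11 and -0.85 ± 0.12, while the guanylate-binding protein Gbp2 changed by 0.82 ± 0.092 and the chemokine Cxcl10 by 0.94 ± 0.21. Gbp4, Iigp1, Tgtp1, Cxcl9 and Cxcl11 were below the filter.

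Among the interferon regulatory factors and their partners 7 of 11 tested genes were called higher and 0 lower, with a median change of 0.42. The shares over all tested genes were 23.2% higher and 22.1% lower. Irf5, which acts downstream of Toll-like receptors, was at 30.6, 27.3 and 28.1 RPKM in mock and 122, 120.4 and 124 RPKM in G388S (change 2.06 ± 0.056, adjusted p = 1.29e-12). Batf3, a partner of IRF8 in dendritic cells, was at 0.123, 0.0939 and 0.039 RPKM in mock and 6.24, 8.04 and 6.68 RPKM in G388S (change 2.87 ± 0.14, adjusted p = 6.55e-10), and it entered the test through the groups in which it was high. Ikzf1 changed by 0.78 ± 0.053. Ikzf1 encodes Ikaros, a zinc finger factor of blood cells.

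Dendritic cell genes were higher from low levels. All 6 tested genes of 12 listed were called higher, against 23.2% over all tested genes. However, 4 of the 6 were under 1 RPKM in every mock library and entered the test through the groups in which they were high. The filter therefore favoured a call of these 4 as higher. Itgax, the integrin CD11c, was at 6.29, 6.63 and 6.87 RPKM in mock and 61.7, 59.3 and 56 RPKM in G388S (change 2.98 ± 0.058, adjusted p = 5.78e-14). Clec9a, the receptor for dead cells on cross-presenting dendritic cells, was at 0.0666, 0.0355 and 0.0759 RPKM in mock and 6.1, 5.97 and 5.12 RPKM in G388S (change 2.66 ± 0.077, adjusted p = 2.76e-12). Zbtb46, a transcription factor of classical dendritic cells, changed by 0.98 ± 0.082. Other defining markers did not reach the filter, with Flt3 and Siglech under 0.1 RPKM and Cd209a at 0 in all 6 libraries.

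Toll-like receptor and inflammasome genes gave 9 higher and 6 lower of 21 tested, with a median change of -0.019. Counts in this paragraph stand beside 23.2% higher and 22.1% lower over all tested genes. Tlr9, the endosomal receptor for unmethylated DNA, was at 0.708, 0.655 and 0.752 RPKM in mock and 12.4, 11.7 and 11.4 RPKM in G388S (change 2.91 ± 0.069, adjusted p = 3.71e-13), and it too was under 1 RPKM in every mock library and was tested through the groups in which it was high. Its trafficking chaperone Unc93b1 changed by 0.55 ± 0.069. Il1rn, the natural antagonist of the interleukin-1 receptor, was at 48.3, 52.1 and 46.9 RPKM in mock and 16.4, 16.8 and 17.1 RPKM in G388S (change -1.49 ± 0.056, adjusted p = 3.34e-11). Of 13 tested inflammatory cytokines and enzymes 5 were called higher and 5 lower, and the chemokine Ccl22, under 1 RPKM in every mock library, changed by 2.47 ± 0.11 and the cytokine Tnf by -0.36 ± 0.079. A further 11 genes of this list, Il6, Nos2 and Il10 among them, were below the filter.

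Proliferation genes rose almost without exception. Of 24 tested genes 23 were called higher and 0 lower, with a median change of 0.62, against 23.2% called higher over all tested genes. Ccnd1, cyclin D1, which M-CSF induces to enter the cell cycle, was at 70.9, 69.4 and 68.9 RPKM in mock and 195, 212 and 208 RPKM in G388S (change 1.54 ± 0.05, adjusted p = 7.42e-12). Ccne1, cyclin E1, was at 7.83, 7.75 and 8.24 RPKM in mock and 15.5, 17.1 and 18.1 RPKM in G388S (change 1.00 ± 0.068, adjusted p = 2.72e-08). Rrm2, a subunit of ribonucleotide reductase, changed by 0.91 ± 0.067 and Top2a, the topoisomerase of dividing cells, by 0.64 ± 0.048. The member that was not called was E2f1 (change 0.17 ± 0.11, adjusted p = 0.218).

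Metabolic lists had medians close to that of all tested genes, of which 23.2% were called higher and 22.1% lower. Of 24 genes of the respiratory chain and ATP synthase 0 were called higher and 6 lower, the latter near the share over all tested genes. The median change was -0.059, and the count of lower genes ran from 2 to 11 over the alternatives. Glycolysis and hypoxia-response genes gave 5 higher and 5 lower of 19, both near the shares over all tested genes. Among them were Ldha, lactate dehydrogenase, at 0.36 ± 0.072 and Vegfa, the vascular growth factor, at -0.79 ± 0.076. Cholesterol and fatty acid genes gave 6 higher and 1 lower of 19, led by Scd2, a fatty acid desaturase, at 1.46 ± 0.075 (adjusted p = 1.43e-09). Serine synthesis and ATF4 target genes gave 5 higher and 3 lower of 15, led by Psat1, an enzyme of serine synthesis, at 1.25 ± 0.055 (adjusted p = 2.11e-10).

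Lists of other cell types held few tested genes. All 4 tested neutrophil and granulocyte genes were called lower, at low levels, against 22.1% over all tested genes. S100a8 stood at -0.51 ± 0.14 and S100a9 at -0.76 ± 0.21, and the median was -0.68. Another 12 listed genes were below the filter. With 33 libraries in the fit the list held 1 higher and 3 lower members, with a median of -0.015. Without the level filter it held 1 higher and 6 lower, with a median of -0.012. The call of S100a8 was lost without G388S replicate 3 (adjusted p = 0.0517). In the stromal and osteoblast list 1 of 6 tested genes was called, Runx2, at 1.74, 1.54 and 1.68 RPKM in mock and 0.412, 0.342 and 0.379 RPKM in G388S (change -0.94 ± 0.079, adjusted p = 2.19e-07), and it passed the filter through the mock libraries alone, so that it is not tested when any of them is left out. The single tested T and NK cell gene, Cd4, changed by -1.40 ± 0.076, while the defining T cell genes were under 1 RPKM. Blnk, the single tested B cell gene, was not called, and no mast cell or erythroid gene was tested.

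**Figure D3:**
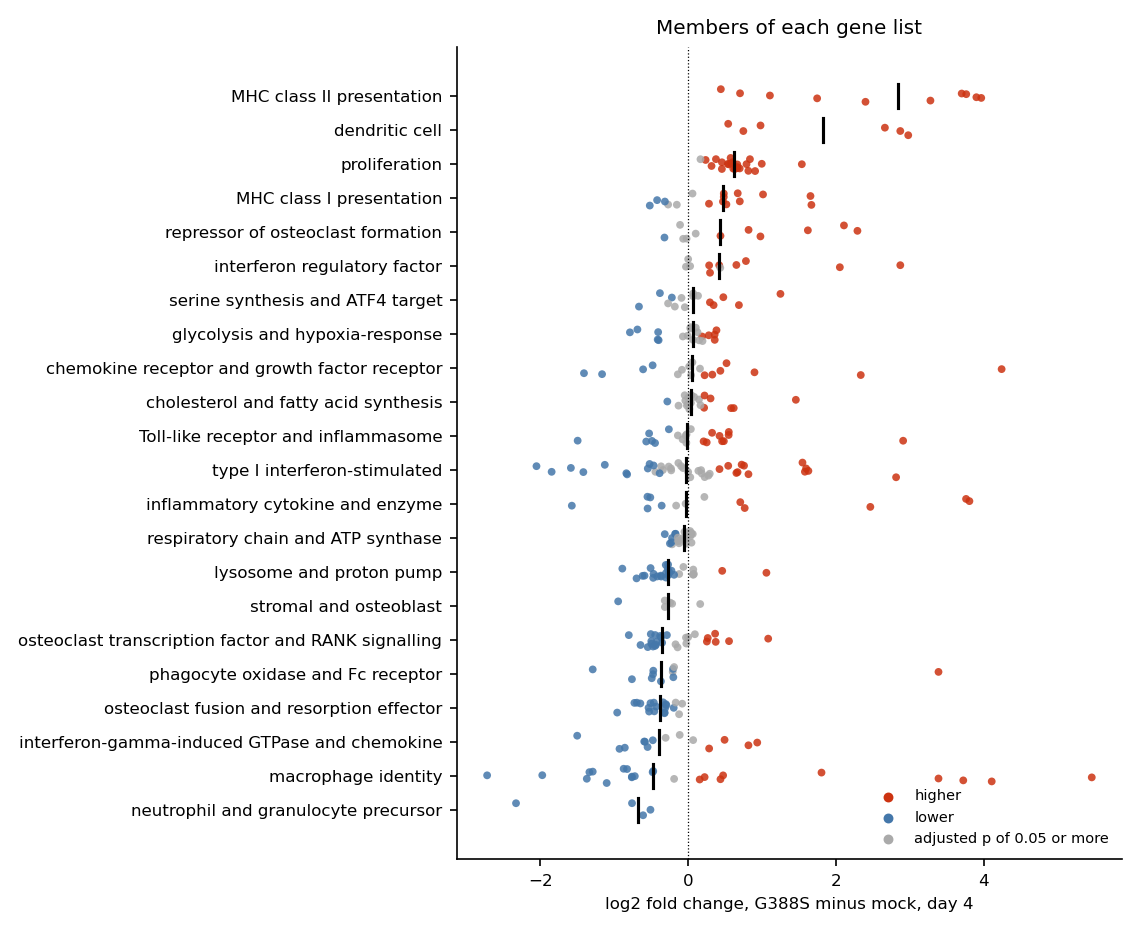
Log2 fold change at day 4 (x axis, G388S minus mock) of every tested member of the lists with at least 4 tested genes, one list per row, ordered by its median (black bar), with the median of all tested genes dotted. MHC class II, dendritic cell and proliferation genes lie to the right, osteoclast effectors and lysosome genes mostly to the left, and interferon-stimulated genes on both sides.

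The levels of G388S were read beside those of the other construct groups of day 4. The comparison of hIRF8WT with mock uses the same 3 mock libraries, so its values are set beside those of G388S without a test of likeness. It called 7223 genes (67.2%), 3596 higher (33.5%) and 3627 lower (33.7%), against 4870 for G388S. For class II genes it gave 10 higher of 10 with a median of 2.96, for osteoclast effectors 19 lower of 20 with a median of -0.53, and for proliferation genes 23 higher of 24 with a median of 0.44. G388S against hIRF8WT gave 5920 called genes (55.1%), 3005 higher and 2915 lower. The column names of the hIRF8WT libraries of day 4 have another prefix than those of the other groups. Construct and prefix therefore cannot be told apart in G388S against hIRF8WT or in hIRF8WT against mock.

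Of the 440 genes changed by at least 1 against mock, 232 (52.7%) differed between G388S and hIRF8WT, near the 55.1% of all tested genes. Irf8 was read at 25.9, 22.5 and 25.4 RPKM in hIRF8WT, and the difference of G388S from it, -0.12 ± 0.082, was not called (adjusted p = 0.238). Plbd1 at 181 ± 10.5 RPKM, H2-Ab1 at 231 ± 6.11 RPKM and Apoe at 226 ± 4.95 RPKM (SD, n = 3) were not called either, with differences of -0.15 ± 0.069, -0.10 ± 0.10 and -0.08 ± 0.08. Ciita was higher in hIRF8WT, at 8.59, 8.22 and 8.38 RPKM, with a difference of -0.58 ± 0.086 for G388S (adjusted p = 8.67e-05). Ccl2 was lower in hIRF8WT, at 126, 146 and 146 RPKM, with a difference of 0.82 ± 0.10 for G388S (adjusted p = 1.54e-05). Acp5 was lower in hIRF8WT, at 905, 1052 and 998 RPKM, with a difference of 0.37 ± 0.068 for G388S (adjusted p = 0.000436). Ocstamp, which G388S left near the mock level, was at 37.2, 38.5 and 37.2 RPKM in hIRF8WT, with a difference of 0.72 ± 0.062 (adjusted p = 1.4e-06). Itgb3 differed the other way, at 42.5, 41.7 and 40.2 RPKM in hIRF8WT and a difference of -0.65 ± 0.092 (adjusted p = 6.11e-05).

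G388S and hIRF8379-389, whose columns share a prefix, differed less. Of 10749 genes 1661 (15.5%) were called, 1179 higher (11%) and 482 lower (4.48%) in G388S, and 2 genes were called with a difference of at least 1. The count depended on single libraries and fell to 638 without G388S replicate 1, to 930 without G388S replicate 2, to 678 without hIRF8379-389 replicate 2 and to 982 without its replicate 3. Irf8 was lower in hIRF8379-389, at 18.1, 14.5 and 15.8 RPKM, with a difference of 0.46 ± 0.082 for G388S (adjusted p = 0.00353). Class II genes went the other way, with 8 of 10 called lower in G388S than in hIRF8379-389 and a median difference of -0.38. H2-Ab1 was at 405, 334 and 296 RPKM in hIRF8379-389, with a difference of -0.67 ± 0.10 for G388S (adjusted p = 0.00155). Ccnd1 was higher in G388S, by 0.34 ± 0.05 over 162 ± 5.89 RPKM (SD, n = 3, adjusted p = 0.00135). Gas6, Mertk, Ifit1 and Apoe were not called, with differences of -0.21 ± 0.078, -0.29 ± 0.093, -0.063 ± 0.16 and -0.0098 ± 0.08.

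**Figure D4:**
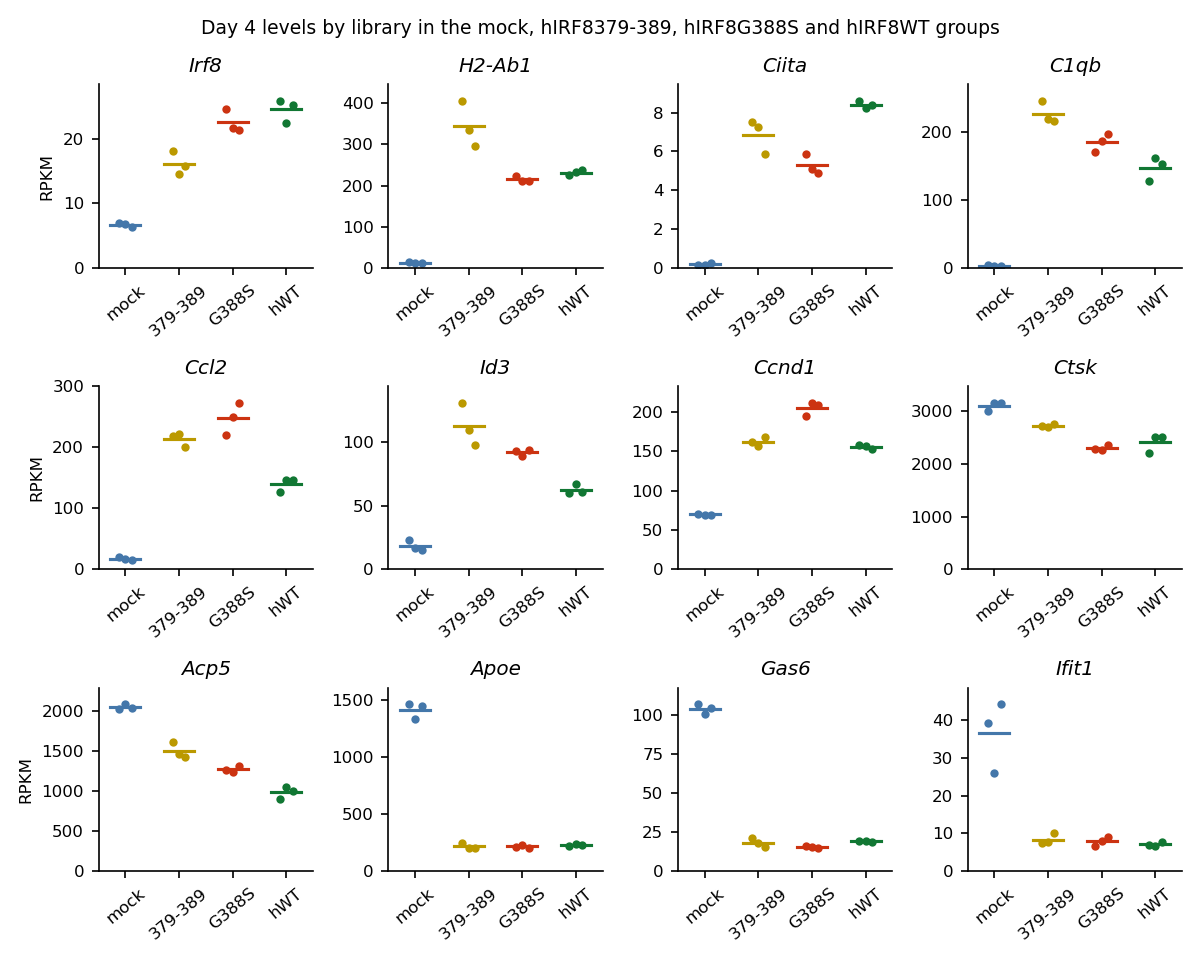
RPKM of 12 genes at day 4 (y axis, from 0) in each library of the mock, hIRF8379-389, hIRF8G388S and hIRF8WT groups, with points for the 3 libraries and a bar for their mean. H2-Ab1, Ciita, C1qb, Ccl2 and Id3 are low in mock and high in the 3 IRF8 groups, Apoe, Gas6 and Ifit1 the reverse, and Ctsk and Acp5 are lower but still high in the IRF8 groups.

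Before RANKL, at day 0, the same constructs were compared in cells given M-CSF alone, and the difference of the G388S change between days was tested in 1 model over the libraries of both days. It called 6474 of 10894 genes (59.4%), 1875 higher (17.2%) and 4599 lower (42.2%) at day 4, with a median difference of -0.30. After libraries were rescaled by the median of ratios it called 6107 genes, 3007 higher and 3100 lower, with a median of -0.031, so values are read against these medians. Irf8 was at 24, 23.3 and 18.3 RPKM in mock and 47.7, 62.6 and 61.4 RPKM in G388S at day 0. The difference of its change between days was 0.28 ± 0.18 (adjusted p = 0.198) on RPKM as deposited and 0.60 ± 0.18 (adjusted p = 0.0129) after rescaling, so the call depends on the scaling.

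The class II genes H2-Ab1, H2-Aa and Cd74 changed more at day 4 than at day 0. Genes were chosen here for large changes at day 4, which favours a larger change on that day. H2-Ab1 was at 28.1, 22.1 and 22.5 RPKM in mock and 74.9, 76.4 and 89.1 RPKM in G388S at day 0, and its change was larger at day 4 by 2.28 ± 0.16 (adjusted p = 2.72e-06). The fall of mock and the rise of G388S between the days both entered that difference. Ccl7 was at 171, 129 and 134 RPKM in mock and 297, 282 and 267 RPKM in G388S at day 0, and the difference between days was 2.84 ± 0.19 (adjusted p = 1.74e-06). Its level was lower at day 4 in both groups. Ms4a4a turned its direction, at 1.7, 2.94 and 0.826 RPKM in mock and 5.21, 7.5 and 5.09 RPKM in G388S at day 0, with a difference of -3.55 ± 0.32 (adjusted p = 7.85e-06). Ocstamp, close to equal at day 4, was at 0.144, 0.59 and 0.315 RPKM in mock and 32.8, 32.2 and 37.7 RPKM in G388S at day 0, with a difference of -4.79 ± 0.16 (adjusted p = 1.3e-08). For Dmpk and Trem3 the difference was not called under either scaling, at -0.06 ± 0.14 and 0.016 ± 0.22 on RPKM as deposited. For Apoe it was 0.22 ± 0.18 as deposited (adjusted p = 0.321) and 0.57 ± 0.18 after rescaling (adjusted p = 0.0202).

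**Figure D5:**
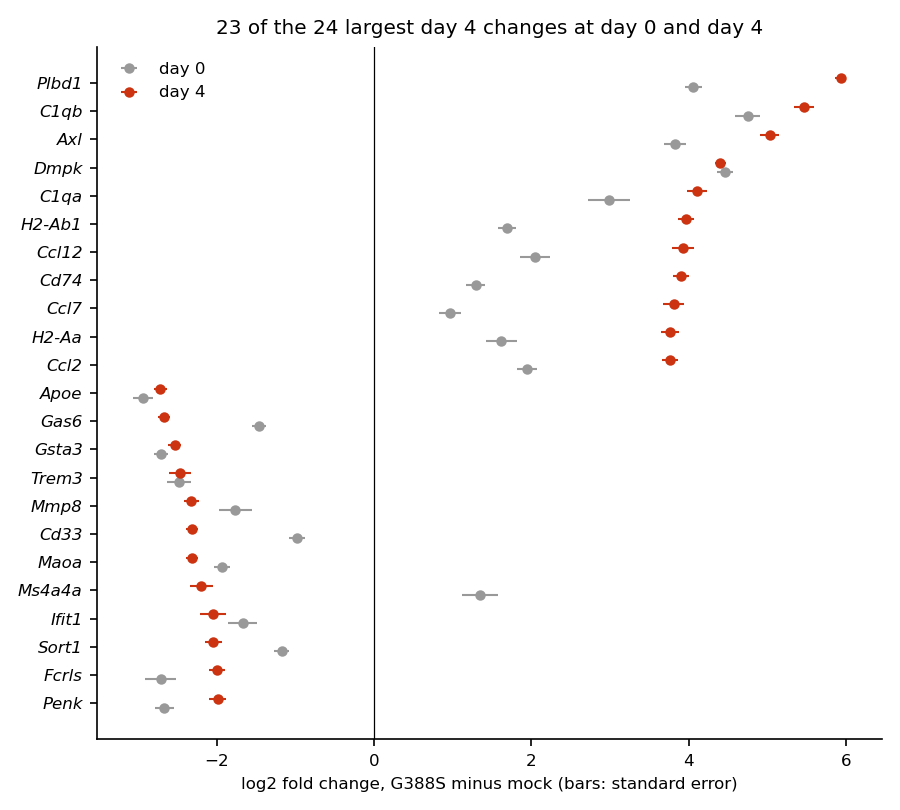
Log2 fold change, G388S minus mock (x axis, bars show the standard error), of 23 of the 24 genes with the largest changes at day 4, at day 0 in grey and at day 4 in red, on RPKM as deposited. Class II genes and chemokines lie further from 0 at day 4, Ms4a4a lies on opposite sides of 0, and Dmpk, Apoe and Trem3 lie close together.

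At day 8, with 2 libraries in each group and no test made here, H2-Ab1 was at 16.7 and 16.4 RPKM in mock and 142 and 142 RPKM in G388S. C1qb was at 6.04 and 6.62 RPKM in mock and 190.3 and 178 RPKM in G388S, and Apoe at 683 and 775 RPKM in mock and 165 and 207 RPKM in G388S. Acp5 was at 2208 and 1835 RPKM in mock and 602 and 617 RPKM in G388S. H2-Ab1 and C1qb were higher and Apoe and Acp5 lower in both G388S libraries than in both mock libraries.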

How the data were processed

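Total RNA of cultured BMMs was sequenced. Per the file headers, TopHat alignments to mm10 were turned by Partek into the deposited RPKM values. The submitters' processing notes list CASAVA 1.8.4, bcl2fastq 2.17.1 and TopHat2 2.1.0. The gene annotation behind the table and whether reads were counted by strand are not given in the sources used here. Since RPKM is relative to all alignments, an abundant transcript that rises lowers the values of others. Precision here comes from the spread between libraries, as no counts were used.

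Of 24543 genes, 10749 had at least 1 RPKM in at least 3 of the 12 construct libraries of day 4 and were tested. Log2 values (RPKM plus a pseudocount of 1) were modelled by group means in limma 3.58.1 under R 4.3.3 (eBayes with trend, 8 residual degrees of freedom, two-sided), which understates the change of low genes. A fit on the 12 libraries of mock and G388S at days 0 and 4 tested the difference between days in 10894 genes. The procedure was checked on simulated data with independent normal noise for each gene. Such data leave out the library deviations that followed gene length, so the check cannot speak to them. Loci are from GENCODE vM21 (GRCm38) and promoters from the RefSeq table.

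Members, lists and tests were chosen with earlier results of these data known. Named genes are Irf8, the 12 largest rises and 12 largest falls among called genes without overlap between groups, and up to 4 called and 2 uncalled members of each list; other list members named were picked after their values were seen. Of these genes 1 of the 12 largest rises and 1 list member are counted but not reported here. Alternatives changed the pseudocount, the filter, the scaling, the libraries in the fit, their weights, a gene length trend, a replicate block and single replicates. No sample was dropped or imputed, and no pair of identical columns was found.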

Additional observations from a re-analysis of the deposited data

Results flagged for a closer look

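Among Irf8 and 23 of the 24 genes with the largest changes at day 4, 16 had a G388S change that differed between day 4 and day 0 by the test of the difference itself, under RPKM as deposited and after median-of-ratios scaling. The genes were chosen for their day 4 change, which also enters the difference and favours a larger change on that day. The 16 of 24 (66.7%) were called under both scalings, and the share of all genes called under both is not given. On RPKM as deposited alone 17 of the 24 were called, beside 59.4% of 10894 genes. Values are the day 4 change minus the day 0 change on the log2 scale, as deposited, where the median gene stood at -0.30. Class II genes changed more at day 4, with Cd74 at 2.61 ± 0.17, H2-Ab1 at 2.28 ± 0.16 and H2-Aa at 2.15 ± 0.28. Chemokines did as well, with Ccl7 at 2.84 ± 0.19, Ccl12 at 1.88 ± 0.27 and Ccl2 at 1.82 ± 0.18. So did Plbd1 at 1.88 ± 0.15, Axl at 1.20 ± 0.19, C1qa at 1.12 ± 0.38 and C1qb at 0.71 ± 0.22. Among genes lower in G388S, Gas6 at -1.21 ± 0.12, Cd33 at -1.33 ± 0.14 and Sort1 at -0.87 ± 0.14 fell further at day 4. Fcrls at 0.72 ± 0.28 and Penk at 0.68 ± 0.17 fell less at day 4 than at day 0. Ms4a4a, at -3.55 ± 0.32, was higher in G388S at day 0 and lower at day 4.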

How the results depend on the processing

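For G388S against mock at day 4, the count of 4870 called genes fell to 2973 (1543 higher, 1430 lower) with all 33 construct libraries in the fit, and to 440 (279 higher, 161 lower) when a log2 change of at least 1 was also asked. Under the other alternatives it ran from 3802, with a filter of 5 RPKM, to 6229, with array weights. Without each library in turn it ran from 4136 to 4758, with 2118 to 2627 higher and 2018 to 2265 lower. Leaving the hIRF8WT libraries out of the fit, chosen after seeing the data, gave 4671. Leaving single libraries out moved the count against hIRF8379-389 (638 to 1606), and the cause was not tested. It ran from 5068 to 5502 against hIRF8WT, from 6669 to 7155 for hIRF8WT against mock, where leaving out hIRF8WT libraries gave 6683 to 6762, and from 5734 to 7705 for the difference between days.

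Same-numbered libraries did not deviate together (correlations across genes of -0.37, 0.0999 and -0.281). These values cannot decide whether the numbers pair the samples, because deviations from a mean of so few libraries depend on each other. The deviations also followed gene length, with opposite signs in some same-numbered libraries. What a replicate number marks is not given in the labels. With the replicate number as a block 4824 genes were called for G388S against mock, 5855 against hIRF8WT, 1529 against hIRF8379-389, 7186 for hIRF8WT against mock and 6002 for the difference between days.

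Of 104 called genes named in the text, 100 were tested in all 16 alternative fits, 93 of them kept direction and call in each, and 0 reversed. Fosl1, S100a9 and Zbtb46 were not tested with the filter of 5 RPKM, nor was Runx2, which was also not tested without any 1 mock library. With 33 libraries the calls of Unc93b1, S100a8, Tnfrsf11a, Zeb2, B2m, Tnf and Ccl5 were lost (adjusted p from 0.0575 to 0.207), in a fit whose spread includes other days. Array weights added calls of Oscar and Blnk, and leaving out mock replicate 1 added Cd109. Spi1, not called, changed sign near 0, from -0.098 to 0.055 when single libraries were left out (0.055 without mock replicate 1). With 33 libraries the interferon regulatory factor list held 4 higher members in place of 7, phagocyte oxidase and Fc receptors 4 lower in place of 8 and glycolysis 2 higher in place of 5. Glycolysis held 8 higher without mock replicate 1. The respiratory chain list held 3 lower members without G388S replicate 1, 3 without mock replicate 2 and 10 without mock replicate 3, in place of 6. Depth per gene is unknown from RPKM, so low genes carry an error that these fits see through the spread between libraries alone.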

Other observations

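Some of the most abundant transcripts changed between the groups, and the genes named here were chosen after their values were seen. Of 41 tested genes averaging at least 1000 RPKM over the 6 libraries, 13 were called higher and 14 lower. Over all tested genes the shares were 23.2% higher and 22.1% lower. By at least 0.5 on the log2 scale 5 were called higher and 8 lower, and the share of all tested genes at that size is not given. Tmsb4x, thymosin beta 4, which binds actin monomers, was at 2808, 2913 and 2277 RPKM in mock and 9214, 9523 and 10424 RPKM in G388S (change 1.87 ± 0.092, limma adjusted p = 7.91e-10). Actb, beta actin, was at 3763, 3501 and 3154 RPKM in mock and 8059.7, 7818 and 8461 RPKM in G388S (change 1.23 ± 0.073, adjusted p = 6.83e-09), and Actg1, gamma actin, changed by 0.70 ± 0.062. The groups did not overlap for Tmsb4x and Actb. Lgals3, galectin 3, and Psap, the precursor of lysosomal saposins, changed by 0.94 ± 0.081 and 0.81 ± 0.059. Lower were Fth1, the ferritin heavy chain that stores iron, at 7123, 6759.9 and 5698 RPKM in mock and 4094, 4152 and 4600.3 RPKM in G388S (change -0.60 ± 0.084, adjusted p = 4.15e-05), the peroxide-reducing Prdx1 (-0.90 ± 0.076) and the glycoprotein Gpnmb (-0.64 ± 0.051). The 13 genes called with a change of at least 0.5 in size together took 9.76 to 10.1% of the summed RPKM in mock and 10.1 to 10.4% in G388S. Actin and thymosin genes have processed pseudogenes whose reads cannot be placed with certainty.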
